A study of Rattus norvegicus with 8 samples.

Results

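The genes of fatty acid oxidation and the wider set controlled by the nuclear receptor PPAR alpha were examined in the livers of iron-deficient and control rats. The set was defined by 43 gene symbols, and a gene was taken as measured where at least 1 probe set carried its symbol alone. By this rule 41 of the 43 genes were measured, on 58 probe sets, out of 14217 named genes and 31042 probe sets in all. Acaa1a and Cyp4a2 lay only on probe sets shared with another gene and were not analysed. Each of the 13 genes with several probe sets was represented by the one with the highest mean over the arrays.

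Liver RNA came from male Sprague-Dawley rats, an outbred strain, at 7 weeks of age. The 4 iron-deficient arrays came from rats fed a purified diet of the AIN93G type from which the ferric citrate had been removed, and the 4 control arrays from rats fed the complete diet. Both diets had Avicel in place of cellulose, and all rats ate within a daytime window for 4 days from day 12 and for 1.5 h before the livers were taken on day 17. The diets were given to 7 and 6 rats, blood hemoglobin on the iron-free diet had reached 42% of the control level, and the labels call the 4 arrays per group biological replicates without saying which rats gave them.

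Fatty acids enter the hepatocyte, are activated to acyl-CoA esters and pass into mitochondria as carnitine esters, where a repeating cycle of dehydrogenation, hydration, dehydrogenation and thiolysis shortens them to acetyl-CoA, much of which leaves the fasting liver as ketone bodies. Peroxisomes shorten very long chains and the endoplasmic reticulum hydroxylates the far end of the chain. PPAR alpha, a receptor that senses fatty acids and pairs with RXR, raises transcription of many of these enzymes, most strongly in fasting. Several steps depend on iron: Etfdh, which passes electrons from the acyl-CoA dehydrogenases to ubiquinone, holds an iron-sulphur cluster, and the Cyp4a hydroxylases are heme enzymes.

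The deposited values lay on a log2 scale with array medians from 7.1195 to 7.1205, and hepatocyte markers stood high on it, with control means from 10.46 to 15.00 for the 9 measured. Differences between arrays were compressed to an extent that varied from gene to gene. Within the set the within-group standard deviation ran from 8.65e-07 for Acot1 to 0.0211 for Cd36, so a deposited difference is not a fold change and its size cannot be set against that of another gene. Differences are therefore given on the deposited scale with the limma SE, and as standardised differences, in which the iron-deficient minus control difference is divided by the within-group SD of the same probe set. The number of arrays limits the precision. Hamp, the hepcidin gene and the main marker of iron supply, read 15.99 to 16.10 in the control livers, against 6.98, 10.58, 6.99 and 6.93 in iron-deficient replicates 1 to 4. The 3' minus 5' signal difference of the actin control, a measure of RNA integrity, ranged from 1.4064 to 1.4083 in iron-deficient and from 1.4072 to 1.4092 in control livers, and its part in the results below was not tested.

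PPAR alpha binds with RXR to a direct repeat of AGGTCA half-sites spaced by 1 base. The 250 bases before the annotated transcription start were searched on both strands for this repeat, since the receptor raises transcription of many enzymes of the set. Control of each gene by PPAR alpha was not tested. RefSeq windows on the GRCr8 assembly were found for 38 of the 43 genes. The exact repeat AGGTCANAGGTCA occurred in none of the 38 and in 0.0508% of all 33469 windows. The looser form AGGNCANAGGNCA, which includes every match of the exact repeat, occurred in Fabp1 alone, and in 0.368% of all windows. A single AGGTCA, which is also part of the exact repeat, was present in 10 of the 38 (26.3%) and in 14.1% of all windows. The 9 measured genes of these 10 had standardised differences from -1.57 to 0.13, with 8 lower in iron deficiency as deposited, where 31 of all 41 measured genes of the set were lower. Of these 9, 1 was lower under quantile normalization, 5 when Hamp was kept out of that step and 4 after centring of each array on its median. Shown first are Fabp1, which carries the only repeat, and Acadvl, which carries a pair of half-sites. Ehhadh and Cd36 follow because their expression differed in opposite directions, and last comes the stretch between Hadha and Hadhb, which encode both subunits of the trifunctional protein and are read in opposite directions from starts 301 bases apart. Sequences are 5' to 3' on the strand of the named gene, and capitals mark the looser repeat in Fabp1 and the half-site in the others.
Fabp1, chr4:104749090-104749339, plus strand: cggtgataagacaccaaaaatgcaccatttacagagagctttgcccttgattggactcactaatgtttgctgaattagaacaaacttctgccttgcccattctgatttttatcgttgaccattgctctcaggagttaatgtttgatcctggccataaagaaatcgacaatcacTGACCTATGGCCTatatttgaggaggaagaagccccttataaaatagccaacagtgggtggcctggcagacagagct
Acadvl, chr10:55236706-55236955, minus strand: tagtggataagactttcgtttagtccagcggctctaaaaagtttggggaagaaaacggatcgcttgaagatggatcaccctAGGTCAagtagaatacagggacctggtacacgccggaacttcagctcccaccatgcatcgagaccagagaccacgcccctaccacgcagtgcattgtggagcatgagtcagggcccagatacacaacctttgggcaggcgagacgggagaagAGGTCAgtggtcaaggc
Ehhadh, chr11:92746159-92746408, plus strand: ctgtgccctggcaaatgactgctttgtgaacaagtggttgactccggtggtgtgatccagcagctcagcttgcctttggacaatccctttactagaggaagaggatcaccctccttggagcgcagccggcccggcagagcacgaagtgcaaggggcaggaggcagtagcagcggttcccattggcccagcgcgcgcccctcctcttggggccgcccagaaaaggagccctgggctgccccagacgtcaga
Cd36, chr4:18246332-18246581, plus strand: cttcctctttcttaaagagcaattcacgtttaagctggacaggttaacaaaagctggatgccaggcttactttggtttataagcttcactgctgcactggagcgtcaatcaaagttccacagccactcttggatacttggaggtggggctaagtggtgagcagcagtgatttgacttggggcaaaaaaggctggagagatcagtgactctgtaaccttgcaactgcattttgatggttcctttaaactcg
Hadha, chr6:31907551-31907800, plus strand: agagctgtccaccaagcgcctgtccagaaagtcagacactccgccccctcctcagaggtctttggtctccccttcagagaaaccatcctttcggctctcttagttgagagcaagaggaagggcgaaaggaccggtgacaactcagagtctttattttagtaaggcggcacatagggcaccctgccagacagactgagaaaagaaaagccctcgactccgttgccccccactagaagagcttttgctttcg
The repeat in Fabp1 ends 64 bases before the start. In Acadvl the half-sites end 163 and 11 bases before it, and the windows of Ehhadh, Cd36 and Hadha hold none of these letters. A match describes the sequence and not binding, and the windows do not reach more distant sites.

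The comparison asked how the oxidation genes differ in liver under dietary iron deficiency. Of the 41 measured genes, 31 had a lower mean in iron-deficient livers and 10 a higher one, where 53% of all named genes were lower and 47% higher. The median standardised difference was -0.62, against -0.07 over all named genes. No gene of the set passed an adjusted p of 0.05 in limma, a threshold passed by 0.0422% of all named genes, and the lowest adjusted p was 0.210. At an unadjusted limma p under 0.05 there were 7 lower genes, 17.1% of the set against 7.5% of all named genes, and 1 higher gene, where 5.74% of all were higher. These were Acaa2, Acads, Hadha, Hadh and Etfb of mitochondrial oxidation, Ehhadh of peroxisomal oxidation and the thioesterase Acot2, all lower, and the fatty acid transporter Cd36, which was higher. The groups did not overlap for 4 of the 41, where 7.82% of all named genes were separated in either direction. They were Acaa2, Ehhadh and Acot2 on the lower side (7.32% of the set, against 4.4% of all named genes), and Cd36, the single higher gene, where 3.42% of all named genes were separated upward. Under quantile normalization the set turned to 10 lower and 29 higher, where 40.6% of all named genes were lower. When Hamp was kept out of that step 19 were lower and 11 higher, where 57.8% of all named genes were lower. With each array centred on its median 18 were lower and 23 higher, and only 9.19% of all named genes were lower. Centring moved the median difference of all named genes from -2.3e-07 to 5.04e-05 on the deposited scale. That shift exceeds the deposited difference of compressed genes such as Etfb (-1.08e-05), so the sign after centring cannot show their direction. Hadha, Hadh, Acaa2, Etfb and Ehhadh turned to higher under quantile normalization and Etfb under centring. Under quantile normalization Hadha, Hadh, Acaa2 and Etfb had no within-group spread. With Hamp kept out of that step these genes differed by exactly 0, and Ehhadh was lower. Acads, Acot2 and Cd36 kept their sign under all 3 of these scalings, Acads at only -0.0041 within-group SDs after centring. Without iron-deficient replicate 3 the count was 26 lower, and the median standardised difference was -0.27.

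**Figure D1:**
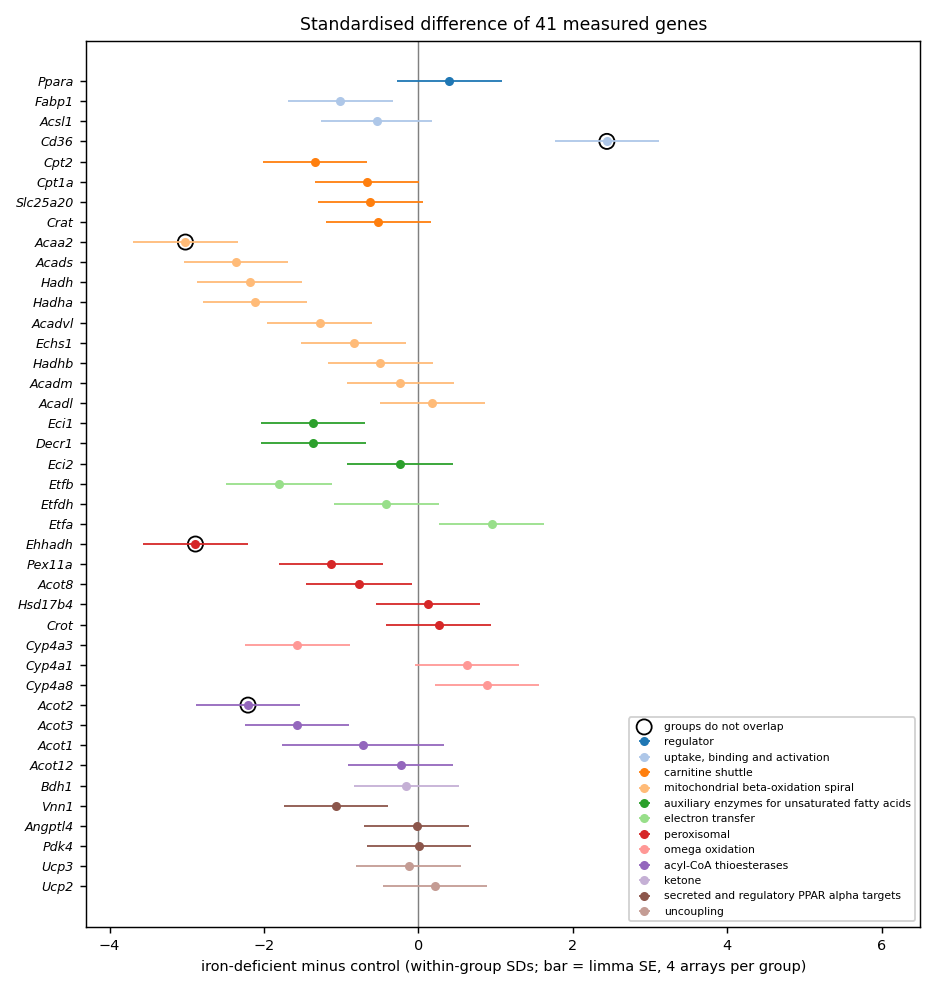
Standardised difference (iron-deficient minus control, in within-group SDs) of the 41 measured genes, grouped by step, with the limma SE as a bar and 4 arrays per group. Circles mark the 4 genes whose groups do not overlap, Acaa2, Ehhadh and Acot2 on the lower side and Cd36 on the higher, and 31 of the 41 points lie below 0 as deposited, against 10 under quantile normalization and 18 after centring.

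The carnitine shuttle, the oxidation spiral, the auxiliary enzymes and electron transfer are together called the mitochondrial genes here. Mitochondrial proteins of other steps, such as the thioesterase Acot2, are not counted among them. Of these 19 measured genes 17 had a lower mean in iron deficiency, with a median standardised difference of -0.84. Quantile normalization gave 5 lower and 14 higher here, the same without the Hamp probe set 8 and 3, and centring 10 and 9. Of all named genes 40.6%, 57.8% and 9.19% were lower under these settings in turn. The mitochondrial median was -0.50 without control replicate 2 and -1.43 without iron-deficient replicate 4, and it turned to 1.77 under quantile normalization. In that last median Cpt1a, Acadl, Hadha, Hadh, Acaa2, Echs1 and Etfb count as infinite, since they had no within-group spread, so its size cannot be set against the others. Of the 19, 5 had an unadjusted limma p under 0.05, all lower (26.3%, against 7.5% of all named genes), and 1 had groups that did not overlap (5.26%, near the 4.4% of all named genes separated downward).

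Entry through the carnitine shuttle was lower for all 4 genes as deposited, but for 2 under quantile normalization and 3 after centring, and none had an unadjusted limma p under 0.05. Cpt2, which turns carnitine esters back into acyl-CoA inside the mitochondrion, had the largest standardised difference of the step, -1.34. Its deposited values were 10.70075, 10.70075, 10.70050 and 10.70087 in iron-deficient replicates 1 to 4 and 10.70065, 10.70110, 10.70155 and 10.70109 in control replicates 1 to 4. Control replicate 1 lay among the iron-deficient arrays, below 3 of the 4, and the groups overlapped (limma adjusted p = 0.521). Cpt1a, the rate-limiting acyltransferase of the outer membrane, read 12.17663, 12.17633, 12.17630 and 12.17659 in iron-deficient livers and 12.17641, 12.17666, 12.17659 and 12.17658 in control livers. Iron-deficient replicates 2 and 3 were the lowest, while replicates 1 and 4 lay within the control range (limma adjusted p = 0.778). A second Cpt1a probe set had the opposite sign, at 0.51 within-group SDs against -0.67. Slc25a20, the carrier that exchanges acylcarnitine for carnitine, and Crat, which makes short-chain carnitine esters, had standardised differences of -0.62 and -0.52.

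In the oxidation spiral itself 8 of 9 genes were lower as deposited, with a median standardised difference of -1.28, but 1 under quantile normalization and 5 after centring. Of the 9, 4 had an unadjusted limma p under 0.05 on the lower side, where 7.5% of all named genes did. Acaa2, the thiolase that releases acetyl-CoA at the end of each turn, read 12.24255, 12.24247, 12.24233 and 12.24262 in iron-deficient livers and 12.24279, 12.24288, 12.24271 and 12.24283 in control livers. All iron-deficient values lay below all control values, and replicate 3 was the lowest. Acaa2 differed by -3.09e-04 ± 6.92e-05 on the deposited scale (limma SE, n = 4 per group), or -3.02 within-group SDs (limma adjusted p = 0.210). A second, dimmer Acaa2 probe set stood at -1.07.

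Acads, the dehydrogenase of short chains, read 10.34739, 10.34736, 10.34736 and 10.34735 in iron-deficient livers and 10.34739, 10.34742, 10.34745 and 10.34742 in control livers. Only control replicate 1 and iron-deficient replicate 1 overlapped. The difference was -5.18e-05 ± 1.48e-05, or -2.36 within-group SDs (limma adjusted p = 0.293). The Acads difference was -0.40 within-group SDs under quantile normalization and -0.0041 after median centring. Hadh, the dehydrogenase of hydroxyacyl-CoA, read 12.29972, 12.29968, 12.29963 and 12.29967 against 12.29980, 12.29978, 12.29973 and 12.29971 in the controls, with overlap between iron-deficient replicate 1 and control replicate 4 alone. On the standardised scale Hadh stood at -2.19 (limma adjusted p = 0.321). The other Hadh probe set, which was dimmer, stood at 0.50.

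Hadha, the alpha subunit of the trifunctional protein, read 11.25742, 11.25733, 11.25721 and 11.25730 in iron-deficient livers and 11.25739, 11.25754, 11.25770 and 11.25755 in control livers. Again control replicate 1 was the lowest control, and it fell just below iron-deficient replicate 1. The difference was -2.31e-04 ± 7.38e-05, or -2.12 within-group SDs (limma adjusted p = 0.335). Its partner Hadhb, the beta subunit, transcribed from the other side of the stretch shown above, stood at -0.49. Acadvl, the dehydrogenase of very long chains and the gene with a pair of half-sites, stood at -1.28, and Echs1, the enoyl-CoA hydratase, at -0.84. Acadm, the dehydrogenase of medium chains, was at -0.23 and Acadl, that of long chains, at 0.18, and neither difference exceeded the spread between replicates. The dehydrogenases thus ranged from -2.36 for Acads to 0.18 for Acadl, and differences among them were not tested.

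The 3 auxiliary enzymes for unsaturated chains were all lower as deposited, but 1 under quantile normalization and 2 after centring, with none at an unadjusted limma p under 0.05. Eci1, an isomerase that moves a double bond, read 10.60238, 10.60292, 10.59834 and 10.60609 in iron-deficient livers and 10.60353, 10.60619, 10.60738 and 10.60646 in control livers. Iron-deficient replicate 3 lay well below the rest and replicate 4 lay within the control range, giving -1.36 within-group SDs (limma adjusted p = 0.515). A dimmer Eci1 probe set pointed the other way, at 1.41. Decr1, the dienoyl-CoA reductase, stood at -1.36 and Eci2, a second isomerase, at -0.24.

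Electrons from the dehydrogenases pass through the flavoprotein ETF. Etfb, its beta subunit, read 12.436003, 12.435996, 12.435989 and 12.435999 in iron-deficient livers and 12.436001, 12.436005, 12.436016 and 12.436008 in control livers. Iron-deficient replicate 3 was the lowest and control replicate 1 lay below iron-deficient replicate 1, with -1.81 within-group SDs (limma adjusted p = 0.402). Etfa, the alpha subunit, was at 0.95 and Etfdh, the iron-sulphur oxidoreductase that receives the electrons, at -0.42.

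**Figure D2:**
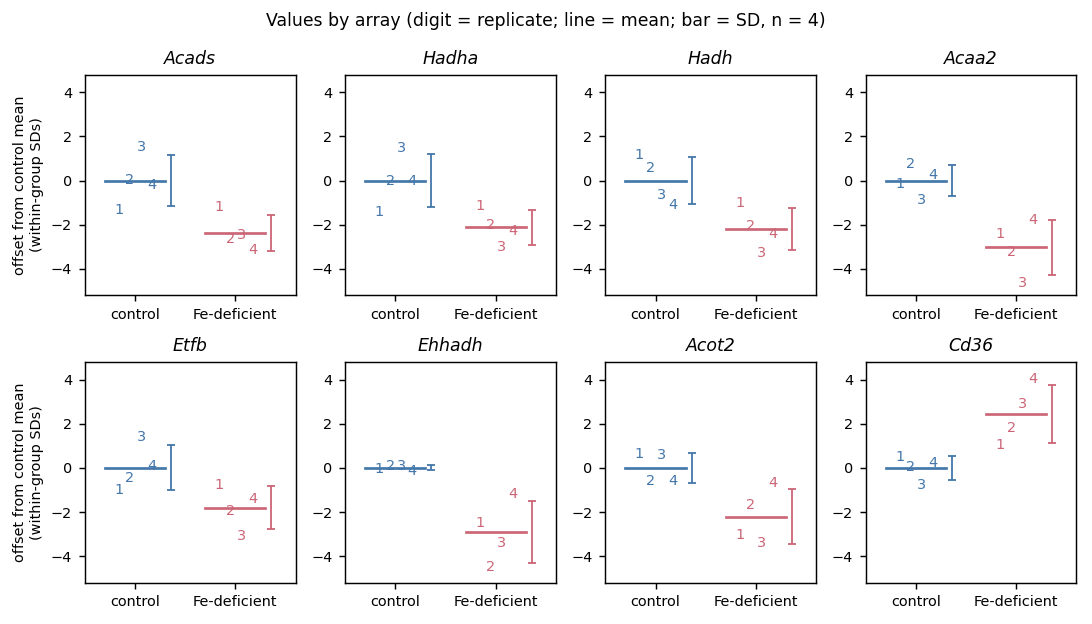
Offset of each array from the control mean, in within-group SDs, for the 8 genes with an unadjusted limma p under 0.05. Digits are replicate numbers, lines are group means and bars are SDs (n = 4 per group). Acaa2, Ehhadh, Acot2 and Cd36 show no overlap between the groups, and control replicate 1 is the lowest control for Acads, Hadha and Etfb.

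Among the genes grouped as peroxisomal here, which of the thioesterases include only Acot8, 3 of the 5 measured were lower and 2 higher. Their median standardised difference was -0.77. That median was -0.50 without iron-deficient replicate 2 and -0.50 without iron-deficient replicate 3, and it turned positive under quantile normalization (0.34) and median centring (0.16), while it was -1.13 when Hamp was kept out of quantile normalization. Ehhadh, the bifunctional enzyme that hydrates and dehydrogenates enoyl-CoA in peroxisomes, read 10.65454, 10.65333, 10.65400 and 10.65534 in iron-deficient livers and 10.65600, 10.65610, 10.65609 and 10.65596 in control livers. All 4 iron-deficient values lay below the controls. The control values were close together, with an SD of 6.84e-05 against 8.49e-04 in iron-deficient livers. Ehhadh differed by -0.00174 ± 4.07e-04 (limma SE, n = 4 per group), or -2.89 within-group SDs (limma adjusted p = 0.224). Pex11a, which promotes peroxisome division, stood at -1.14, and its second probe set at -0.70. Acot8, a peroxisomal thioesterase, was at -0.77, Hsd17b4, the second bifunctional enzyme, at 0.13 and Crot, which makes carnitine esters of shortened chains for export, at 0.26, with its other 2 probe sets at 0.33 and 0.56.

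The omega-hydroxylases of the Cyp4a family were divided, 1 lower and 2 higher. Cyp4a3 read 11.30284, 11.30454, 11.30105 and 11.30532 in iron-deficient livers and 11.30529, 11.30620, 11.30540 and 11.30549 in control livers, or -1.57 within-group SDs (limma adjusted p = 0.453). Iron-deficient replicates 1, 2 and 3 lay below all controls and replicate 4 among them. Cyp4a1 read 10.72669, 10.72698, 10.72649 and 10.72697 in iron-deficient livers and 10.72669, 10.72662, 10.72673 and 10.72665 in control livers, or 0.63 within-group SDs (limma adjusted p = 0.792). Here iron-deficient replicates 2 and 4 were the highest of all arrays and replicate 3 the lowest. Cyp4a8 was at 0.89, and its second probe set at 1.40. The Cyp4a genes are close copies, as are the Acot genes below, so a probe set may read more than 1 of them.

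Acyl-CoA thioesterases, which free fatty acids from CoA, were lower for all 4 measured genes as deposited, for 2 under quantile normalization and for 3 after centring. Acot2, the mitochondrial form, read 8.74663, 8.74687, 8.74657 and 8.74704 in iron-deficient livers and 8.74727, 8.74706, 8.74727 and 8.74706 in control livers. All iron-deficient values lay below the controls, with replicate 4 the closest to them. The difference was -3.88e-04 ± 1.19e-04, or -2.21 within-group SDs (limma adjusted p = 0.318), and its other 2 probe sets stood at -1.21 and -1.29. Acot3 was at -1.58 and Acot12, a cytosolic form, at -0.23. Acot1, the cytosolic form, was at -0.72, but its mean of 6.01 fell under the 25th percentile of all probe sets (6.55), where signal and background are hard to separate.

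Cd36, which brings long-chain fatty acids across the plasma membrane, had the highest standardised difference of the set. It read 7.177, 7.194, 7.217 and 7.241 in iron-deficient livers and 7.166, 7.157, 7.140 and 7.161 in control livers. All iron-deficient values lay above the controls, with replicate 4 the highest and replicate 1 the closest to them. Cd36 differed by 0.0515 ± 0.0143 (limma SE, n = 4 per group), or 2.44 within-group SDs (limma adjusted p = 0.277), and its sign was the same under quantile normalization (2.45) and median centring (2.43). Endothelial cells and adipocytes also express Cd36. Of 8 measured endothelial markers 7 were higher in iron deficiency. Groups did not overlap for 6 of these, where 3.42% of all named genes were separated upward. The endothelial markers had a median standardised difference of 3.51. Their summed level ran from 73.4446 to 73.4471 in iron-deficient and from 73.4397 to 73.4407 in control livers. Pecam1 stood at 0.82 and Stab2 at 4.10. Of 7 adipocyte markers 5 were higher, with a median of 1.01 and summed levels of 48.5780 to 48.5801 against 48.5764 to 48.5774, but Adipoq and Plin1, the defining ones, lay below the 25th percentile of the arrays, at 6.49 and 6.28. Whether these cells had a part in the Cd36 difference was not tested, and in whole liver more cells of a type and more RNA per cell cannot be told apart.

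The other genes of uptake and activation were lower as deposited, by about the spread between replicates or less. They were higher under quantile normalization and after centring, and differed by 0 when Hamp was kept out of quantile normalization. Fabp1, the abundant fatty acid binding protein of hepatocytes and the gene with the repeat shown above, stood at -1.01. Acsl1, the acyl-CoA synthetase, stood at -0.54, while a second Acsl1 probe set was at -1.88 with groups that did not overlap and another, dim one at 0.22.

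Ppara itself, the receptor, read 6.88869, 6.88865, 6.88862 and 6.88876 in iron-deficient livers and 6.88878, 6.88859, 6.88859 and 6.88864 in control livers. The highest array was control replicate 1 and the lowest were control replicates 2 and 3, so the control range enclosed all iron-deficient values. Its standardised difference was 0.40 (limma adjusted p = 0.884), and it was -1.63 under quantile normalization with or without the Hamp probe set. Among strongly inducible PPAR alpha targets, Pdk4, the kinase that restrains pyruvate dehydrogenase, read 8.5414, 8.5408, 8.5348 and 8.5393 in iron-deficient livers and 8.5371, 8.5394, 8.5397 and 8.5401 in control livers. Iron-deficient livers held both the highest and the lowest value, and the means differed by 0.01 within-group SDs (limma adjusted p = 0.999). A second Pdk4 probe set was at 1.30. Angptl4, a secreted inhibitor of lipoprotein lipase, read 9.388, 9.390, 9.382 and 9.366 in iron-deficient livers and 9.367, 9.369, 9.384 and 9.407 in control livers. Iron-deficient replicate 4 was the lowest array and control replicate 4 the highest, with the rest intermixed, at -0.03 within-group SDs (limma adjusted p = 0.995). Vnn1, a pantetheinase, read 8.3115, 8.3152, 8.3100 and 8.3132 in iron-deficient livers and 8.3146, 8.3159, 8.3181 and 8.3118 in control livers, or -1.06 within-group SDs (limma adjusted p = 0.619). Control replicate 4 lay among the low iron-deficient values and iron-deficient replicate 2 among the controls.

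For ketone metabolism Bdh1, which interconverts acetoacetate and hydroxybutyrate, was the only gene of the set. It read 11.04216, 11.04208, 11.04186 and 11.04190 in iron-deficient livers and 11.04205, 11.04203, 11.04205 and 11.04194 in control livers, with iron-deficient livers above and below the controls and the means -0.16 within-group SDs apart (limma adjusted p = 0.964). A second Bdh1 probe set was at -0.47. The uncoupling proteins were near 0. Ucp2, widely expressed in immune cells, read 8.20512, 8.20483, 8.20510 and 8.20531 against 8.20489, 8.20514, 8.20492 and 8.20525 in the controls, at 0.21 within-group SDs (limma adjusted p = 0.948). Ucp3, the muscle form, read 7.266568, 7.266552, 7.266567 and 7.266562 against 7.266569, 7.266561, 7.266549 and 7.266574, at -0.13 (limma adjusted p = 0.973), and both sets of values overlapped.

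Iron-deficient replicate 3 stood apart within the set. It gave the lowest of the 8 arrays for 24 of the 41 genes, or 58.5%, while it was the lowest for 13.6% of all named genes. Among the 19 mitochondrial genes it was the lowest for 15. The median deviation of the mitochondrial genes from their 8-array mean was -1.54 within-group SDs in that array, and -0.20, -0.49 and -0.26 in iron-deficient replicates 1, 2 and 4. In control replicates 1 to 4 it was -0.13, 0.70, 0.88 and 0.27, so that control replicate 1 lay just above the highest iron-deficient array. The remaining genes of the set also had their lowest median in iron-deficient replicate 3, at -1.11, and between -0.09 and 0.37 in the other 7 arrays. Over all named genes the array medians stayed between -0.20 and 0.11. The array was picked out after its values were seen. With it left out, 6 genes had an unadjusted limma p under 0.05 on the lower side and 2 on the higher, where 7.06% and 5.42% of all named genes did. Acaa2, Acads, Hadha, Hadh, Ehhadh, Acot2 and Cd36 had an unadjusted limma p under 0.05 whichever of the 8 arrays was left out, and Etfb in 3 of the 8.

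**Figure D3:**
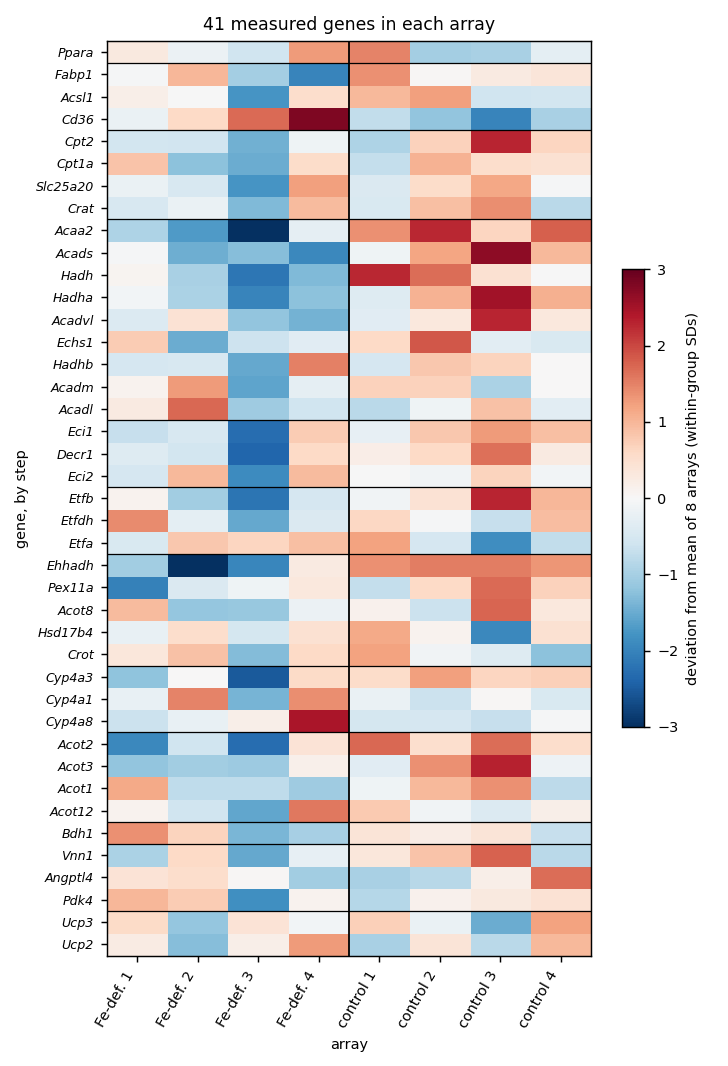
Deviation of every measured gene from its 8-array mean, in within-group SDs, with genes in rows by step and arrays in columns. The colour scale ends at 3 in both directions. Iron-deficient replicate 3 is the lowest array for 24 of the 41 genes, and Cd36 is highest in iron-deficient replicate 4.

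Genes of the same pathway outside the set were divided. Of 73 listed, 65 were measured, 24 higher and 41 lower, with a median standardised difference of -0.26. None passed an adjusted p of 0.05 in limma, and at an unadjusted p under 0.05 there were 4 higher and 6 lower, the latter 9.23% of those measured, near the 7.5% of all named genes. Under quantile normalization 20 of the 65 were lower, where 40.6% of all named genes were. Slc27a2, which activates very long chain fatty acids, stood at -2.90 and its groups did not overlap, and Mgll, the monoglyceride lipase, stood at -2.47. Rxrb, a partner of PPAR alpha, was at -2.37, and 11 of 12 measured partners and coregulators were lower, with a median of -0.71. Ppargc1a, a coactivator induced in fasting, was at -0.15. Gpd1, the glycerol phosphate dehydrogenase, was at -1.90. Higher were Oxct1, which uses ketone bodies in other tissues, at 3.30, Fabp4 at 2.58, Amacr, the racemase of branched acyl-CoA, at 2.08 and Txnip, a glucose-responsive gene, at 2.02. Fgf21, a hormone induced by PPAR alpha, was at -0.14 (limma adjusted p = 0.969). Fabp4 lay below the 25th percentile of the arrays.

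Markers of liver cell types differed unevenly between the diets. Hepatocyte markers were 4 higher and 5 lower, with a median standardised difference of -0.06, with Alb at -0.06 and Ttr at -2.10. The Ttr values overlapped and differed by -1.68e-07 on the deposited scale (limma adjusted p = 0.962). Serpina1, named after its values were seen, stood at 4.05 without overlap but differed by only 2.25e-07 (limma adjusted p = 0.946). Their summed level ran from 120.6277 to 120.6298 in iron-deficient and from 120.6275 to 120.6290 in control livers. Stellate cell markers were higher for 7 of 10, with a median of 2.14, Dcn at 2.99 and Lrat at 3.70, and summed levels of 83.7129 to 83.7168 against 83.7080 to 83.7103. Kupffer cell and macrophage markers were higher for all 8 measured as deposited but for 1 when Hamp was kept out of quantile normalization, with a median of 0.58, Cd68 at 0.48 and Cd163 at 0.82, and summed levels that overlapped (76.6475 to 76.6486 against 76.6474 to 76.6485). Striated muscle markers, looked at because Ucp3 is a muscle gene, were divided at 4 higher and 3 lower, with Ckm at 0.19 and Acta1 at 0.28, a median of 0.19 and 4 of the 7 below the 25th percentile of the arrays. Their summed level ran from 44.92807 to 44.92811 in iron-deficient and from 44.92807 to 44.92815 in control livers. Groups did not overlap for 6 of 8 endothelial and 4 of 10 stellate markers, all higher, where 3.42% of all named genes were separated upward. Other probe sets of Lyve1, Egfl7 and Flt1, genes named after their values were seen, stood at -0.26, at 5.45, and at 2.32 and 2.21. The part of the endothelial and stellate markers in the lower values of the mitochondrial genes was not tested. The summed levels are carried by the few markers whose differences are least compressed. Iron-deficient replicate 3, picked out after its values were seen, had an endothelial median of 0.82, against 1.88 to 2.14 in the other 3 iron-deficient arrays. Any link to the low mitochondrial values of that array was not tested.

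**Figure D4:**
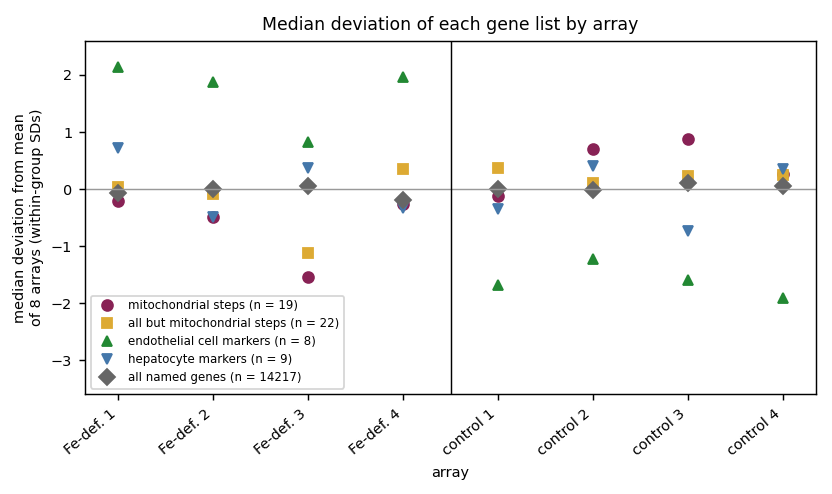
Median deviation from the 8-array mean, in within-group SDs, of the mitochondrial genes, the remaining genes of the set, endothelial and hepatocyte markers and all named genes, in each array. Endothelial markers lie above 0 in all 4 iron-deficient arrays and below 0 in all controls, and the mitochondrial genes reach -1.54 in iron-deficient replicate 3.

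Probe sets of the same gene gave a mixed picture. Averaging the probe sets of each gene turned the sign of 1 of the 41 genes, Cpt1a, and left 30 lower and 11 higher. Such an average is carried by the least compressed probe set, so it cannot show whether the probe sets of a gene agree. Eci1 stayed at -1.36, with within-group SDs of 0.00254 and 1.13e-05 on its probe sets, although the dimmer one stood at 1.41. Acaa2, Acot2, Crot, Cyp4a8, Bdh1, Pdk4, Pex11a and Ucp3 had the same sign on all of their probe sets. Cpt1a, Eci1, Hadh, Hadha and Acsl1 each had at least 1 probe set of opposite sign.

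**Figure D5:**
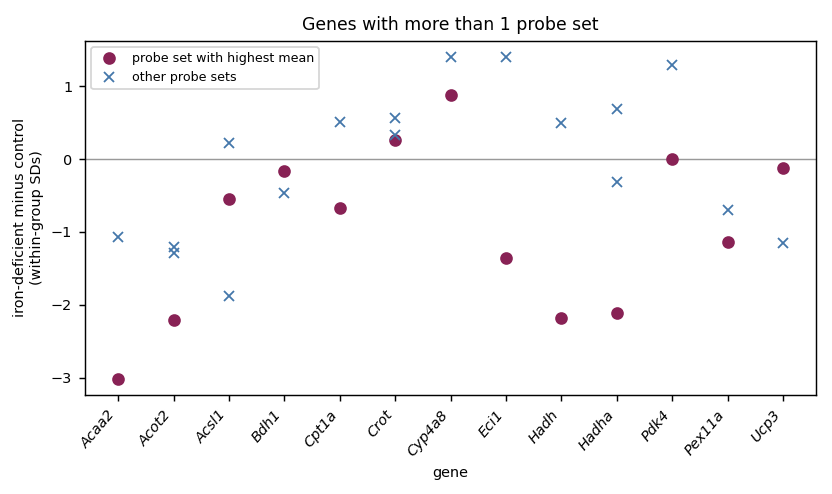
Standardised difference of every probe set of the 13 genes with more than 1. Filled points are the probe sets with the highest mean and crosses the others. Acot2 lies below 0 on all of its probe sets, while Eci1 stands at -1.36 and 1.41.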

How the data were processed

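The deposited values are 1 table of log2 expression over 31099 probe sets and 8 arrays. The summarisation and normalization the authors used are not given in the sources used here, and the base of the log was read from the range of values, 5.32 to 16.1. Differences between arrays in this table are compressed, by an amount that varies between probe sets.

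The 57 control probe sets were left out. Of the 31042 others, 20826 carried 1 gene symbol in the platform annotation, 436 several and 9780 none. limma 3.58.1 in R 4.3.3 (lmFit and eBayes, no trend, no block) was fitted to all of them with Benjamini-Hochberg adjustment, at a threshold of 0.05, which 10 probe sets passed, while 3539 had an unadjusted p under 0.05. The code was tested on simulated data. Values in all arrays are printed for members with an unadjusted p under 0.05, without overlap, with the largest standardised difference of their step, or on a list of 9 genes. Related genes were named for the 8 largest standardised differences at that p, and markers as the leading pair of each list. The members and lists were chosen with earlier results of these data known. Alternatives covered normalization, centring, a filter on dim probe sets, the choice of probe set, the variance model, a replicate block and leaving out each array. Promoter windows came from RefSeq (GRCr8).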

Additional observations from a re-analysis of the deposited data

Results flagged for a closer look

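In 4 of 82 groups of 4 arrays a single array stood away from the other 3 beyond Dixon's critical value, where chance alone flags about 1 in 20 groups, or 4.1. Eci2 was highest in control replicate 3, with a gap of 0.879 of the group's range. Acot1 was highest in iron-deficient replicate 1, with a gap of 0.863 of the range, at a level below the 25th percentile of the arrays. Acot3 was highest in iron-deficient replicate 4, with a gap of 0.908 of the range. Bdh1 was lowest in control replicate 4, with a gap of 0.845 of the range.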

How the results depend on the processing

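Scaling changed the results most. Under quantile normalization 10 members passed an adjusted p of 0.05 in limma, 9 of them with no within-group spread, and 778 of all named genes passed. Then 1 member was lower and 16 higher at an unadjusted limma p under 0.05, where 5.36% and 15.1% of all named genes were. In mean 10 were lower, where 40.6% of all named genes were. The median standardised difference turned to 1.22 for all members, 1.77 for mitochondrial and 0.338 for peroxisomal genes. In the first 2 of these medians, genes with a difference but no within-group spread count as infinite. Differences turned to 0.00344 for Hadha, 0.00245 for Hadh, 0.00155 for Acaa2, 0.00477 for Etfb and 6.53e-04 for Ehhadh. Of related genes 20 were lower, and of markers 9 hepatocyte and 0 muscle genes were higher. When Hamp was kept out of that step, 1 member was lower at an unadjusted limma p under 0.05, where 8.18% of all named genes were. In mean 19 members were lower, where 57.8% of all named genes were. Of the members 11 had differences of exactly 0, Hadha, Hadh, Acaa2 and Etfb among them. Of markers 1 hepatocyte, 1 Kupffer cell, 3 adipocyte and 0 muscle genes were higher. Median centring left 3 lower at an unadjusted limma p under 0.05, where 0.802% of all named genes were, and 18 in mean. It turned the medians to 0.118 for all members and 0.155 for peroxisomal genes, and turned Etfb to 3.98e-05. The cause of the other changes was not tested.

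Leaving out 1 array gave 0 to 0 members past the adjusted p, and 6 to 10 lower and 1 to 2 higher at an unadjusted limma p under 0.05. Of all named genes 5.49% to 8.06% were lower and 4.26% to 5.95% higher at that p. In mean 26 to 33 members were lower, with medians of -0.816 to -0.268 for all, -1.43 to -0.498 for mitochondrial and -1.03 to -0.498 for peroxisomal genes. The filter, the variance models and the mean of all probe sets left 30 or 31 members lower and 6 or 7 at that p, where 6.92% to 8.21% of all named genes were. With replicate number as a block, 0 members passed the adjusted p. At an unadjusted limma p under 0.05, 5 were lower and 1 higher, where 6.17% and 4.91% of all named genes were. Same-numbered arrays correlated at -0.111, 0.0245, -0.0251 and -0.0773, and 1 array matched its own number best, so the numbers do not pair the samples.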
